A study of Mus musculus with 7 samples.

Results

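The suppressors of cytokine signalling are a family of intracellular proteins, encoded in the mouse by Cish and Socs1 to Socs7, and all 8 of these genes were found by name among the 53656 gene rows counted in each library. They were followed in OT1 cells, CD8 T cells with a transgenic receptor for an ovalbumin peptide, which were sorted by CD8 and CD45.1 from B16-OVA-GP61 tumours. B16 is a mouse melanoma line, and here it carries ovalbumin and the GP61 epitope. The 2 groups were OT1 cells from tumours of mice without SMARTA cells (4 libraries) and with SMARTA cells (3 libraries), CD4 T cells that bear a transgenic receptor of their own. OT1 cells, tumour line and sort were common to both groups, so the values describe samples sorted for cells of 1 receptor specificity in 1 tumour model. Markers of other cells were also counted in these samples, as given below. The age, strain and number of the mice, and the time of the sort, are not given in the sources used here, nor whether 2 libraries of a group stem from different mice. The p-values therefore rest on the spread between these libraries alone, part of which may be technical.

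Cytokines such as interleukins and interferons bind receptors whose Janus kinases (JAKs) phosphorylate STAT transcription factors, and STATs in turn switch on SOCS genes, so that the pathway makes its own brake. Each SOCS protein has an SH2 domain, which binds phosphorylated tyrosines on receptors or kinases, and a SOCS box, which recruits a cullin ubiquitin ligase. SOCS1 and SOCS3 also carry a short region that blocks JAK activity directly. In T cells CIS, the product of Cish, is induced by STAT5 downstream of interleukin-2 family cytokines and restrains T cell receptor signalling in mouse CD8 T cells, SOCS1 restrains interferon gamma and interleukin-2 family signals, and SOCS3 restrains signals through the receptor chain gp130.

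The promoters of the members were searched for the element that STAT dimers bind and for the core of the interferon-stimulated response element. The 3 that hold either of them are shown. The RefSeq promoter table (GRCm38.p6, 250 bases before to 50 bases after the annotated start) held 4 of the 8 members, Cish, Socs1, Socs3 and Socs4. They are given 5′ to 3′ on the strand of the gene, at chr9:107296409-107296708 on the plus strand for Cish, chr16:10785487-10785786 on the minus strand for Socs1 and chr11:117969317-117969616 on the minus strand for Socs3. Capitals mark matches to TTCNNNGAA, the palindrome bound by STAT dimers, or to the core of the interferon-stimulated response element (GAAA, 2 bases of any kind, GAAA), both searched on both strands.
Cish: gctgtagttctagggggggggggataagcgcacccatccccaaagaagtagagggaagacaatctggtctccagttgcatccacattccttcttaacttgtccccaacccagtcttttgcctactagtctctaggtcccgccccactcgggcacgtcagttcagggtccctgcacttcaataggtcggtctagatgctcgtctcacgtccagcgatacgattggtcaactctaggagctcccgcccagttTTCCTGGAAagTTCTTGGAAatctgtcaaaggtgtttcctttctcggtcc
Socs1: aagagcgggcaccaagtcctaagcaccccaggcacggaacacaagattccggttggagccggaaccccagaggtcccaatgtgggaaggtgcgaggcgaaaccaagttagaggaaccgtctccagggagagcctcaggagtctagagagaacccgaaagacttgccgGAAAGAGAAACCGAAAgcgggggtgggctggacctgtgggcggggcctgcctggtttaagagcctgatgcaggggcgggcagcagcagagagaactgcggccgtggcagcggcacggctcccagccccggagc
Socs3: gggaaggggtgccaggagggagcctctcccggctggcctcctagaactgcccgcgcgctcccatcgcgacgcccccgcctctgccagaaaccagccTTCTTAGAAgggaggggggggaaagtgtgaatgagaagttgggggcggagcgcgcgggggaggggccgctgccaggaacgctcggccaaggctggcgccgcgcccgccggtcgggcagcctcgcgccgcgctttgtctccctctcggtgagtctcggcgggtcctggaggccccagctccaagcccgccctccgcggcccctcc
The Cish window held 2 matches to TTCNNNGAA, TTCCTGGAA at the RefSeq start itself and TTCTTGGAA 11 bases further on. The Socs3 window held 1, TTCTTAGAA, which begins 154 bases before the start. The Socs1 window held none of these and 2 overlapping matches to the interferon element, GAAAGAGAAA and GAAACCGAAA, which begin 83 and 77 bases before the start. The Socs4 window held neither motif. Of all 32851 promoters of this length in the table, 8.3% held TTCNNNGAA and 3.44% held the interferon element. All positions are relative to the RefSeq start. The gene spans given below come from GENCODE, the annotation used for counting. The Cish and Socs3 windows lie wholly inside these spans, so GENCODE begins these genes further upstream. A match describes the letters and shows no binding in these cells.

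Cish stood far above the rest of the family in every library. Levels of different genes were compared as counts scaled to library size (CPM) per kilobase of annotated exon. On that scale Cish was at 53.2 ± 4.32 without SMARTA and 84.1 ± 45.05 with SMARTA (mean ± SD, n = 4 and 3), and it made up between 68.7% and 87.1% of the summed level per length of the 8 members in each library. Among the 15896 genes that passed the filter on low counts, Cish lay at the 93rd percentile of level per length without SMARTA and at percentile 95.6 with SMARTA, while the 7 Socs genes lay between percentiles 19.5 and 52.4 without and between 29.0 and 73.2 with SMARTA. The annotated exon length joins the exons of all transcripts of a gene, 6419 bases for Cish and 9531 for Socs2 against 2891 for Socs3, so that a gene with long, rarely used exons is placed too low.

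By their means, the members below Cish stood in another order in each group. Without SMARTA the mean levels per length ran from Socs1 (3.13) over Socs3 (2.61), Socs6 (1.91), Socs7 (1.36), Socs5 (1.10) and Socs4 (1.09) to Socs2 (0.411), and no neighbouring pair from Socs1 down to Socs4 was separated by its libraries. Only Cish above Socs1 and Socs4 above Socs2 had no overlap, the latter narrowly (a lowest Socs4 value of 0.657 against a highest Socs2 value of 0.646). With SMARTA Socs3 (11.1) came second with no library overlapping Socs1 (4.29), and Socs1 none overlapping Socs6 (2.63). Socs2 (1.72), Socs4 (1.20), Socs7 (1.02) and Socs5 (0.693) followed, and no neighbouring pair from Socs6 down to Socs5 was separated by its libraries. Socs3 made up 17.3%, 33.5%, 21.4% and 9.8% of the summed level per length of the 7 Socs genes in replicates 1 to 4 without SMARTA, and 51.5%, 47.8% and 47.9% in replicates 1 to 3 with SMARTA.

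**Figure D1:**
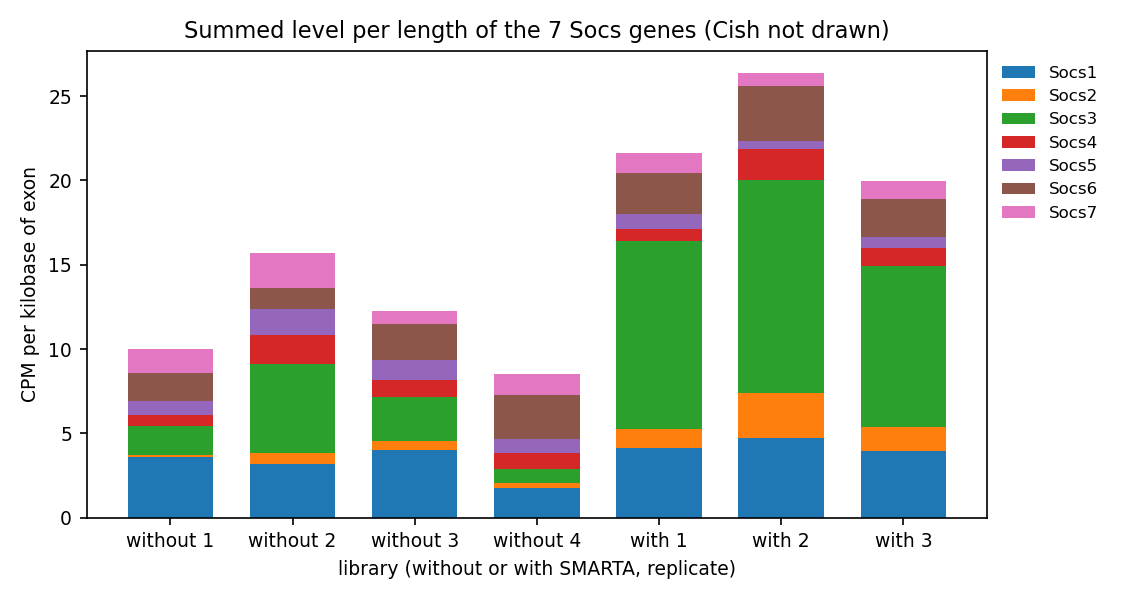
Level per length (CPM per kilobase of exon) of the 7 Socs genes, stacked by gene for each of the 7 libraries; Cish is not drawn because it would fill the axis. The sums were 8.56 to 15.7 in the 4 libraries without SMARTA and 19.9 to 26.4 in the 3 with SMARTA, and Socs3 is the segment that differs most in height.

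No member passed the test between the groups. Counts were compared across all genes with edgeR's quasi-likelihood test, in which 500 of 15896 tested genes (3.15%) had a Benjamini-Hochberg adjusted p under 0.05, 241 of them higher and 259 lower with SMARTA (163 and 398 with plain library totals in place of TMM scaling). Of the 8 members 0 did. DESeq2 called 2 members, Socs2 and Socs3, against 11.7% of all genes with an adjusted p, and limma-voom called 1, Socs3, against 3.33%. In edgeR the same 2 members had an unadjusted p under 0.05, as did 18.6% of all tested genes. Of all tested genes 5.32% and 5.44% had a smaller p than Socs3 and Socs2. They were also the 2 members whose CPM did not overlap between the groups, against 19.2% of all tested genes. The median log2 fold change, with minus without SMARTA, was 0.46 over the 8 members, 6 of them positive, and 0.00 to 2 decimals over all tested genes. All 8 members passed the filter on low counts.

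**Figure D2:**
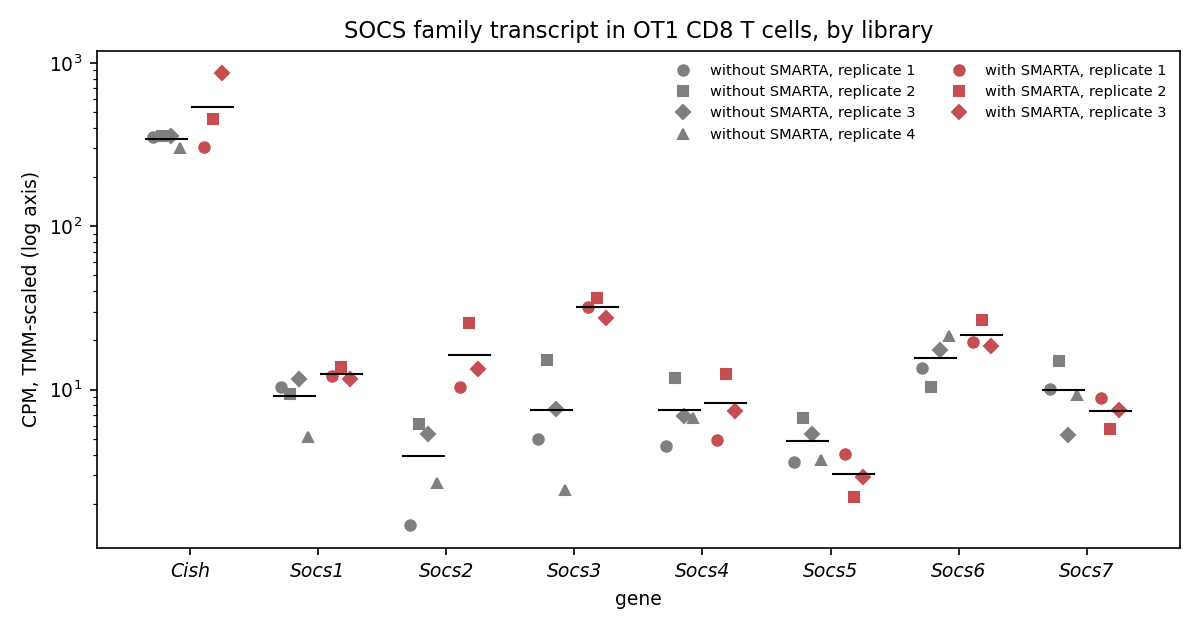
TMM-scaled CPM (log axis) of the 8 members in each of the 7 libraries, grey without and red with SMARTA, the symbol giving the replicate and the black bar the group mean. Socs2 and Socs3 are the members whose red points all lie above the grey ones, and Cish lies near or above 300 in all libraries.

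Socs3, which encodes the inhibitor of gp130-type receptors and lies on chromosome 11 from 117966079 to 117970047 (GRCm38, minus strand), was higher in each library with SMARTA. It stood at 5.0, 15.2, 7.55 and 2.42 CPM in replicates 1 to 4 without SMARTA, and at 32.2, 36.5 and 27.6 CPM in replicates 1 to 3 with SMARTA. The 3 libraries with SMARTA lay close together, while those without spread 6.27-fold from the lowest to the highest, replicate 2 being the highest. The means were 7.54 ± 5.51 and 32.1 ± 4.44 CPM (SD), a 4.25-fold difference. Its log2 fold change was 2.09 ± 0.54 (SE; 95% interval 0.87 to 3.31; edgeR adjusted p = 0.0746). The call turned on replicate 2 without SMARTA: with that library left out the log2 fold change was 2.68 and the edgeR adjusted p 0.0356, and with any other left out it did not pass.

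Socs2, a STAT5-induced gene known for limiting growth hormone signalling, lies on chromosome 10 from 95385362 to 95417180 (minus strand) and had the lowest level per length of the family without SMARTA. Its values were 1.48, 6.15, 5.32 and 2.70 CPM in replicates 1 to 4 without SMARTA and 10.4, 25.4 and 13.3 CPM in replicates 1 to 3 with SMARTA. The groups did not overlap, but both were spread, by 4.16-fold without and 2.43-fold with SMARTA. The means were 3.91 ± 2.19 and 16.4 ± 7.95 CPM, 4.18-fold apart. Its log2 fold change was 2.07 ± 0.53 (SE; 95% interval 0.85 to 3.28; edgeR adjusted p = 0.0762), and none of the 7 fits that leave out 1 library called it (log2 fold changes from 1.6 to 2.37). The lowest of these counts, 73 read pairs in replicate 1 without SMARTA, has a counting error of 11.7%, so the spread within the group is wider than counting alone gives.

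Cish, on chromosome 9 from 107296026 to 107302784 (plus strand), was the most even member without SMARTA and among the most uneven with it. It stood at 354, 359, 354.5 and 300.4 CPM in replicates 1 to 4 without SMARTA and at 305, 451 and 863 CPM in replicates 1 to 3 with SMARTA. Replicate 1 with SMARTA lay inside the range of the other group, while replicate 3 was 2.83-fold above replicate 1. The means were 342 ± 27.7 and 539.6 ± 289 CPM, with a log2 fold change of 0.66 ± 0.32 (SE; 95% interval −0.06 to 1.38; edgeR adjusted p = 0.314). That difference rested largely on replicate 3 with SMARTA, without which the log2 fold change was 0.13 (edgeR adjusted p = 0.835). Of its 6419 exon bases 11.5% are shared with 2 gene models on the opposite strand, which had 0 and 1 to 36 counts per library. Counting did not use strand and left out reads that fit 2 genes, so Cish is undercounted there by an unknown amount.

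The ratio of Cish to Socs3 varied from library to library. Cish exceeded Socs3 per length by 31.9-fold, 10.6-fold, 21.1-fold and 55.8-fold in replicates 1 to 4 without SMARTA, and by 4.26-fold, 5.57-fold and 14.1-fold in replicates 1 to 3 with SMARTA. The ranges overlap between replicate 2 without SMARTA and replicate 3 with SMARTA.

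Socs1, the direct JAK inhibitor of interferon gamma signalling (chromosome 16 from 10782240 to 10785536, minus strand), stood at 10.4, 9.35, 11.6 and 5.10 CPM in replicates 1 to 4 without SMARTA and at 12.1, 13.8 and 11.6 CPM in replicates 1 to 3 with SMARTA. The groups met at 11.6 CPM, and the lowest value was that of replicate 4 without SMARTA. Its log2 fold change was 0.45 ± 0.33 (SE; 95% interval −0.29 to 1.20; edgeR adjusted p = 0.524), an interval that includes 0 and reaches 1.20.

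The 4 remaining members, whose proteins have long amino-terminal regions and are less tied to JAK-STAT signalling, had overlapping groups. Socs6 had the highest mean level per length of these 4 in both groups, and stood at 10.4 to 21.2 CPM without SMARTA and 18.5 to 26.7 CPM with SMARTA, with a log2 fold change of 0.46 ± 0.31 (SE; 95% interval −0.24 to 1.16). Socs7 stood at 5.28 to 14.9 CPM without and 5.76 to 8.92 CPM with SMARTA (−0.42 ± 0.39; 95% interval −1.30 to 0.46). Socs5 stood at 3.62 to 6.74 CPM without and 2.19 to 4.03 CPM with SMARTA (−0.67 ± 0.39; 95% interval −1.57 to 0.22), the most negative difference of the family. Socs4 stood at 4.51 to 11.8 CPM without and 4.91 to 12.4 CPM with SMARTA (0.14 ± 0.44; 95% interval −0.85 to 1.13), and its sign turned with plain library totals in place of TMM scaling (−0.023). The edgeR adjusted p of these 4 genes lay between 0.422 and 0.907. Within each group the library with the highest Socs4 value was replicate 2.

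**Figure D3:**
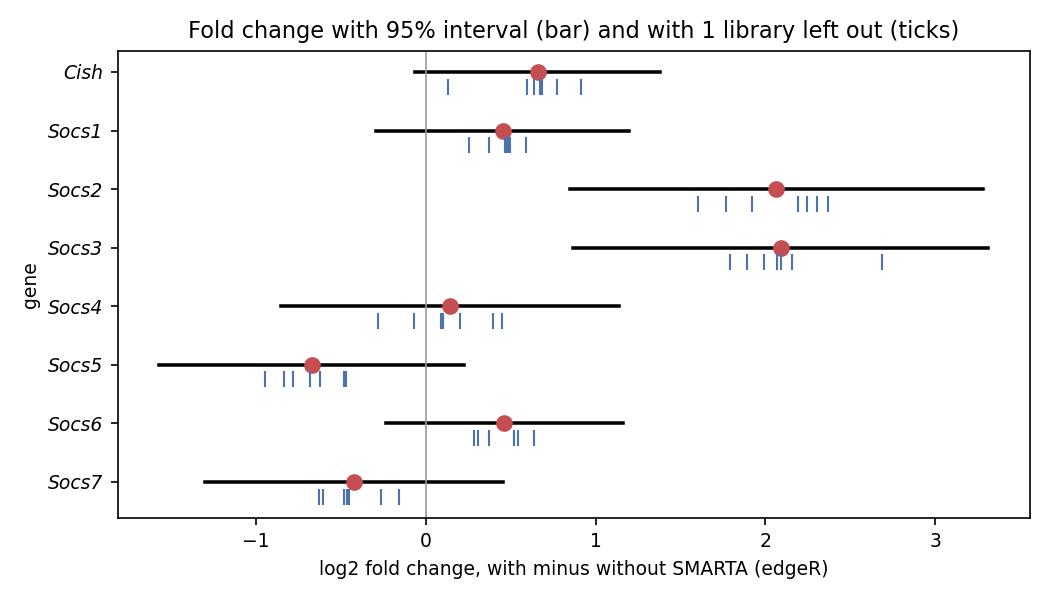
Log2 fold change of each member, with minus without SMARTA (red point, edgeR), its 95% interval (bar) and the values with 1 library left out in turn (blue ticks). The intervals of Socs2 and Socs3 lie above 0, those of the other 6 members include 0, and 1 tick of Cish, at 0.13, lies apart from the rest.

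Upstream of the family, 2 cytokine receptor chains were called. Of 24 tested receptor genes 2 were called higher with SMARTA and none lower, against 1.52% of all tested genes called higher and 1.63% called lower. An unadjusted edgeR p under 0.05 was found for 8 of the 24, against 18.6% of all tested genes. Higher with SMARTA without overlap were 7 of the 24, against 8.73% of all tested genes, and 1 was lower without overlap, against 10.5%. Il4ra, the shared chain of the interleukin-4 and interleukin-13 receptors, stood at 98.6, 155, 131 and 147 CPM in replicates 1 to 4 without SMARTA and at 605, 473 and 475 CPM in replicates 1 to 3 with SMARTA. It rose by 1.96 ± 0.21 log2 units (SE; edgeR adjusted p = 0.0109) and kept its call whichever of the 7 libraries was left out. Ifngr1, the ligand-binding chain of the interferon gamma receptor whose signal SOCS1 restrains, rose from 1464 ± 227 to 3442 ± 417 CPM (SD), by 1.23 ± 0.18 log2 units (SE; edgeR adjusted p = 0.0169), a call kept in 2 of the 7 fits that leave out 1 library. Over these 7 fits its log2 fold change ran from 1.11 to 1.34. The genes called in all ran from 17 to 907 in them, against 500 with all libraries. The median log2 fold change over the list was 0.33.

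Of the 11 Janus kinases and STATs, 1 was called higher and none lower, against 1.52% and 1.63% of all tested genes, with a median of 0.36. An unadjusted edgeR p under 0.05 was found for 4 of the 11, against 18.6% of all tested genes. Stat2, a transcription factor of the type I interferon signal, rose from 85.0 ± 30.7 to 239.8 ± 54.7 CPM (SD; 1.5 ± 0.29, SE; edgeR adjusted p = 0.0399), a call kept in 2 of the 7 fits. Its log2 fold change ran from 1.30 to 1.76 over the 7. Among 13 other brakes on the pathway (phosphatases, PIAS proteins, CBL ligases and others), 1 was called higher and none lower. That gene, Usp18, which blocks the type I interferon receptor and is itself induced by interferon, stood at 39.4, 54.1, 54.5 and 73.3 CPM in replicates 1 to 4 without SMARTA and at 141, 315 and 356 CPM in replicates 1 to 3 with SMARTA. It rose by 2.29 ± 0.34 log2 units (SE; edgeR adjusted p = 0.0179), and by 2.03 to 2.58 over the 7 fits, of which 2 kept the call. The interval of Usp18 was not compared with those of Socs2 and Socs3 by a test.

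The ligase that SOCS boxes recruit showed no call. Of 9 tested genes of the cullin core, none was called by edgeR, DESeq2 or limma-voom and none had an unadjusted edgeR p under 0.05. Over all genes these called 3.15%, 11.7% and 3.33%, and 18.6% had such a p. At these shares a list of 9 genes holds few calls, so their absence says little about the ligase. The smallest p was that of Eloc, an elongin that binds the SOCS box, at 104 ± 39.0 CPM without and 66.7 ± 20.4 CPM with SMARTA (SD), a log2 fold change of −0.64 ± 0.35 (SE, edgeR adjusted p = 0.378). Of 15 tested genes for other SOCS box proteins, out of 27 listed, 1 was called higher and none lower, with a median of 0.28. Spsb1, which pairs a SOCS box with a SPRY domain, stood at 0.0405, 0.543, 0.223 and 0.379 CPM in replicates 1 to 4 without SMARTA and at 8.24, 4.82 and 4.41 CPM in replicates 1 to 3 with SMARTA. It rose by 4.29 ± 0.73 log2 units (SE; edgeR adjusted p = 0.0262), and by 3.87 to 4.75 over the 7 fits, of which 3 kept the call. Without SMARTA replicate 1 lay below the floor of 3 counts, 0.0607 to 0.0652 CPM in these libraries, and replicates 2 to 4 lay above it. All of these values are low, so that the size of this fold is poorly fixed.

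Among genes that respond to the same STATs, calls were found for interferon targets. Of 20 tested, 11 were called higher and none lower, against 1.52% and 1.63% of all tested genes, and the median log2 fold change was 1.53, with no negative value. The number called ran from 3 to 15 with 1 library left out, in fits that called 17 to 907 genes in all. It was 0 with the titles' replicate number as a block, a fit that called 0 genes in all. Irf7, which drives interferon transcription, rose by 1.90 ± 0.17 (SE; edgeR adjusted p = 0.0082) and Oas3, which senses double-stranded RNA, by 2.08 ± 0.20 (edgeR adjusted p = 0.00825), and both kept their call whichever library was left out. Of 14 tested STAT5 target genes outside the family none was called by edgeR or limma-voom and 2 were called lower by DESeq2; 2 had an unadjusted edgeR p under 0.05, and the median was 0.15. Myc, which had the smallest p, stood at 260.2, 365, 370 and 467 CPM in replicates 1 to 4 without SMARTA and at 200.4, 184 and 61.5 CPM in replicates 1 to 3 with SMARTA (−1.30 ± 0.40, SE; edgeR adjusted p = 0.122). Of the 14 log2 fold changes 5 were negative, as that of Myc was, and 9 positive, as those of Cish and Socs2 were. Over all 15896 tested genes 7983 were negative and 7913 positive. Of 11 tested STAT3 target genes none was called by edgeR or limma-voom and 1 by DESeq2. An unadjusted edgeR p under 0.05 was found for 1, and the median was 0.07. Over all tested genes 18.6% had such a p, and DESeq2 called 11.7% of those with an adjusted p.

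The genes for cytokines that start these signals were not called by edgeR in the OT1 cells themselves. Of 9 tested ligand genes, out of 20 listed, none was called by edgeR, 1 by limma-voom and 4 by DESeq2, all lower with SMARTA. Over all genes these called 3.15%, 3.33% and 11.7%. An unadjusted edgeR p under 0.05 was found for 4 of the 9, against 18.6% of all tested genes. Lower with SMARTA without overlap were 4 of the 9, against 10.5% of all tested genes, and 1 was higher without overlap, against 8.73%. Il2, which encodes the T cell growth factor that induces Cish through STAT5, stood at 5.26, 1.24, 4.14 and 9.57 CPM in replicates 1 to 4 without SMARTA and at 0.381, 0.746 and 0.264 CPM in replicates 1 to 3 with SMARTA (−3.43 ± 0.76 log2 units, SE; edgeR adjusted p = 0.0502). All 3 values with SMARTA lay below the 4 others. Il10, an inhibitory cytokine listed both as a ligand and as a STAT3 target, stood at 12.4, 1.37, 8.73 and 1.48 CPM without SMARTA, in replicate order, and at 0, 0.217 and 0.206 CPM with SMARTA (edgeR adjusted p = 0.0611). Ligands made by other cells of the tumour were not measured in sorted OT1 cells.

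**Figure D4:**
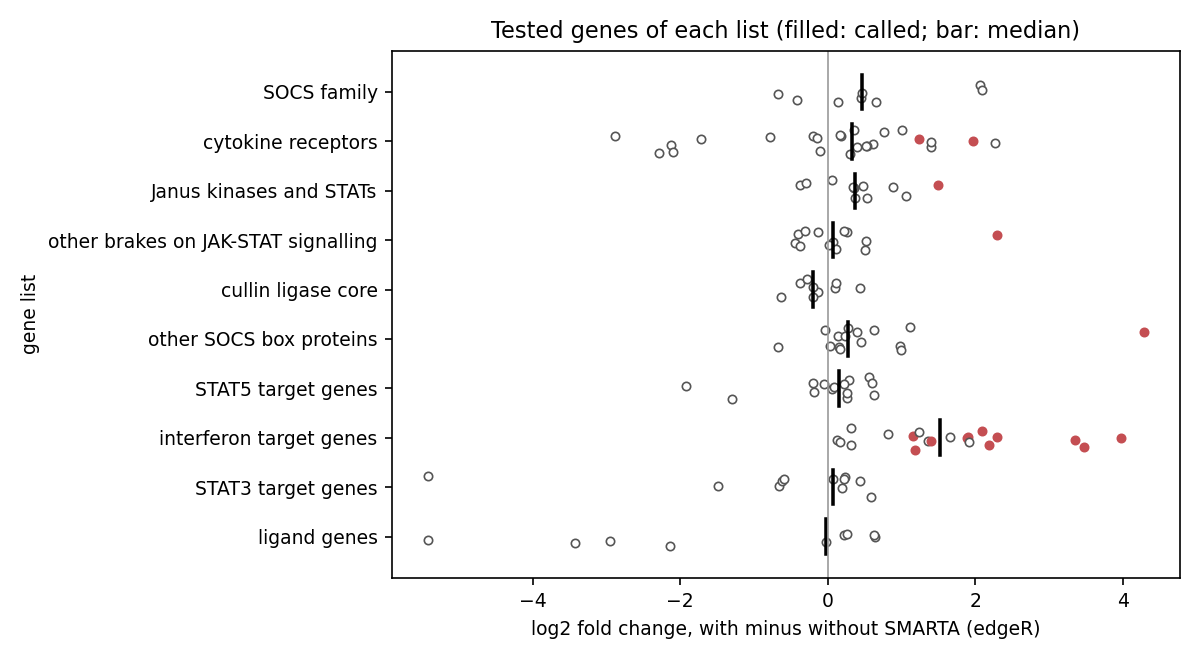
Log2 fold change, with minus without SMARTA (edgeR), of every tested gene of the SOCS family and of the 9 lists around it; filled points were called and black bars mark the median. The 8 SOCS points are all open, and the interferon targets hold 11 of the 16 different genes called.

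For the 3 members with the smallest p, the genes with the most similar pattern over the 7 libraries were found by the root mean square difference between log2 CPM patterns centred on their means, among 7884 genes of moderate or high level. Nearest to Socs3 were Mxd1, a MYC antagonist (0.47 log2 units), Pik3ip1, an inhibitor of PI3 kinase (0.48), and Esm1 (0.50), against a spread of Socs3 about its own mean of 1.38. Nearest to Socs2 were Fgl2, a secreted immune regulator (0.38), Fam160a2 (0.47) and the glycerol and water channel Aqp9 (0.47), against a spread of 1.28. Nearest to Cish were Fam129a (0.15) and Ptpn22, a phosphatase of T cell receptor signalling (0.15), against a spread of 0.49. Ptpn22 stood highest in replicate 3 with SMARTA, as Cish did, at 2425 CPM against 1033 and 1529 CPM in replicates 1 and 2. These distances describe the 7 libraries and say nothing of shared control.

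**Figure D5:**
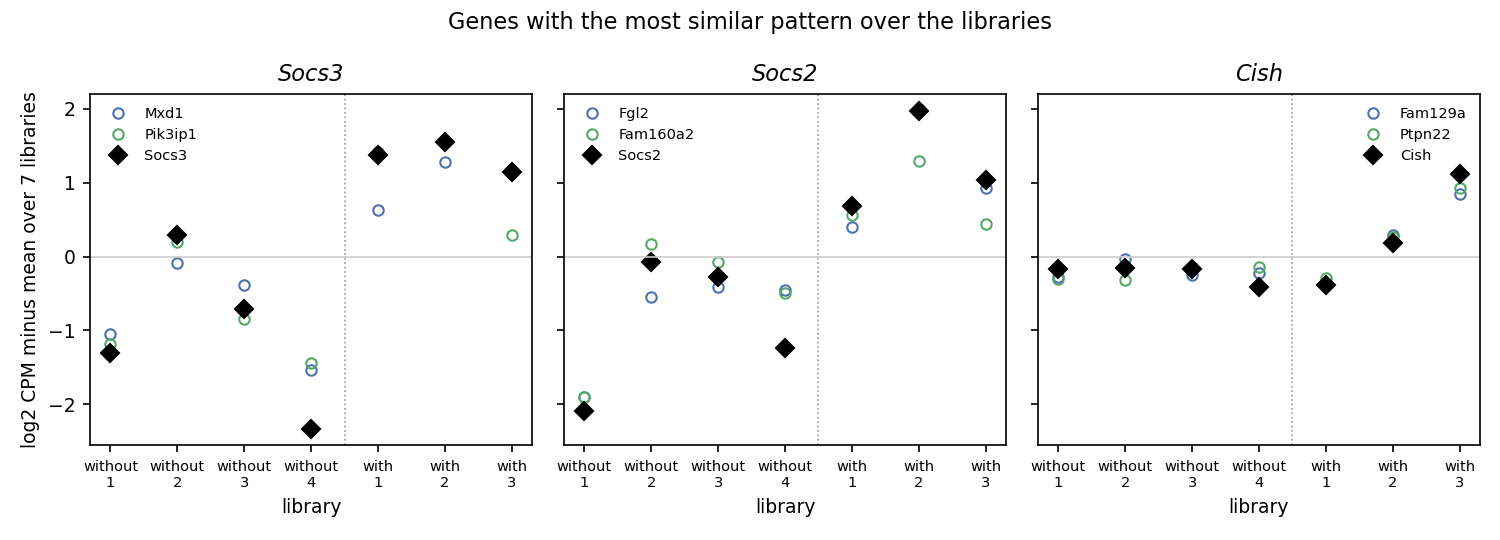
Log2 CPM minus the mean over the 7 libraries for Socs3, Socs2 and Cish (black diamonds) and the 2 genes nearest to each (open circles), with the dotted line between the libraries without and with SMARTA. Cish and its neighbours are highest in replicate 3 with SMARTA.

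Library totals were between 38092722 and 49438357 read pairs. The 10 CD8 T cell markers summed to 10500 to 12500 CPM without and 11800 to 14200 CPM with SMARTA. The library of replicate 1 with SMARTA held 4830 CPM of 9 erythroid markers, against 10.2 to 224 CPM in the other 6; without it the log2 fold changes of Socs2 and Socs3 were 2.30 and 2.07 (edgeR adjusted p = 0.0549 and 0.0896). Neutrophils and macrophages also express Socs3. The 10 neutrophil markers summed to 85.1, 32.7, 3.83 and 5.59 CPM in replicates 1 to 4 of the group without SMARTA and to between 0.82 and 3.6 CPM in the other group, and Elane was at 0 in all 7 libraries. The 12 macrophage and monocyte markers summed to 442 to 696 CPM without and 826 to 2190 CPM with SMARTA, and 6 had a higher and 6 a lower mean with SMARTA. Most of that sum was Ccr2, which T cells also express and which was called higher; the sum of the other 11 ran from 88.7 to 211 CPM in the libraries without SMARTA and was 227 CPM in replicate 1, 38.2 CPM in replicate 2 and 37.0 CPM in replicate 3 with SMARTA, and 8 of the 12 were highest in replicate 1 with SMARTA. The 9 fibroblast and endothelial markers summed to 91.1 to 136 CPM without and 150 to 210 CPM with SMARTA; without Pecam1, the largest, the other 8 summed to 2.34 to 48.0 and 8.35 to 42.0 CPM. The 7 melanoma markers were at 68.4 CPM in replicate 2 without SMARTA, the library with the highest Socs3 value of its group, and at 6.7 to 16.9 CPM in the others. The 5 CD4 T cell markers summed to 49.5 to 114 CPM without and 122 to 143 CPM with SMARTA; Cd40lg was the largest, the other 4 summed to 23.3 to 46.3 and 28.3 to 54.1 CPM, and Izumo1r was called lower (5.95 to 18 against 1.34 to 2.73 CPM). The groups did not overlap in the full sums of the macrophage, fibroblast and CD4 lists, which were higher with SMARTA, as Socs2 and Socs3 were. They overlapped in each of these sums without its largest gene. The neutrophil sum did not overlap either, but was lower with SMARTA. Without its largest gene it still did not overlap, at 3.52 to 70.9 CPM without and 0.515 to 2.81 CPM with SMARTA. The sums of the 7 dendritic cell markers (60.6 to 222 and 146 to 434 CPM), the 7 B cell markers (331 to 564 and 286 to 643 CPM) and the 3 NK cell markers (23.2 to 85.4 and 13.6 to 100.8 CPM) overlapped between the groups. The part of these cells in the SOCS values was not tested beyond these values, and in sorted bulk samples fewer cells with a transcript cannot be told apart from less of it per cell.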

How the data were processed

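Polyadenylated RNA of 7 sorted samples was amplified with a SMART-seq kit, which does not mark strand, and sequenced in pairs, per the labels' protocols. STAR 2.6.0c, featureCounts 1.6.2 and GRCm38.p6 were used, per the submitters' processing notes. The deposited values are raw counts of read pairs per gene name over GENCODE M17 exons, without strand and with reads that fit several places or genes left out, per the file headers.

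Libraries were grouped by title. With R 4.3.3 and edgeR 4.0.16, genes were kept by filterByExpr (minimum count 10, minimum total 15), scaled by TMM and tested by a robust quasi-likelihood fit, two-sided, without covariate; standard errors were derived from fold changes and F values. Log2 CPM used a prior count of 2. Marker sums are CPM of plain totals. DESeq2 1.42.0 and limma-voom (limma 3.58.1) were alternatives. Scripts were tested on simulated data. Within each group all pairs of libraries differed by more than counting noise, with chi-square values of 83.6 to 399 per degree of freedom. Counting errors and floors cover counting only.

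The members and lists were chosen with earlier results of these data known. Named are all members, up to 2 called genes of each list (else the 1 with the smallest p) and the 3 genes nearest in pattern to each of the 3 members with the smallest p; 1 of these is not reported here. Ccr2, Elane, Pecam1, Cd40lg and Izumo1r were named after their values were seen. A promoter sequence was printed only where the RefSeq table gave one with a motif.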

Additional observations from a re-analysis of the deposited data

Results flagged for a closer look

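Within the group without SMARTA, Cish in replicate 4, at 300.4 CPM, lay apart from the other 3 libraries, which were at 354 to 359 CPM: the gap was 0.916 of the group's range, above Dixon's 95% critical value for 4 samples. For normal values chance gives a gap above that critical value in about 1 of 20 groups, and the 8 members were examined. Leaving that library out gave Cish a log2 fold change of 0.60 in place of 0.66. The other 7 members had gaps of 0.261 to 0.679 of their range.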

How the results depend on the processing

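The direction of 7 of the 8 members held in all 13 alternatives. The exception was Socs4, at −0.023 with plain library totals and between −0.28 and 0.45 with 1 library left out. With 1 library left out the range was 0.13 to 0.92 for Cish, 0.25 to 0.59 for Socs1, 1.6 to 2.37 for Socs2, 1.79 to 2.68 for Socs3, −0.95 to −0.47 for Socs5, 0.28 to 0.64 for Socs6 and −0.63 to −0.16 for Socs7. DESeq2 called 2 members, Socs2 (2.07, adjusted p = 0.00247) and Socs3 (2.09, adjusted p = 0.00203), and limma-voom 1, Socs3 (2.39, adjusted p = 0.0374); over their alternatives the adjusted p ran from 0.00247 to 0.347 for Socs2 and from 0.00203 to 0.338 for Socs3.

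DESeq2 called 1740 genes against 500, with 5 cytokine receptors, 2 Janus kinases and STATs, 2 other SOCS box genes, 2 STAT5 targets, 1 STAT3 target and 4 ligands. Of the ligands, 1 was called with RLE scaling or limma-voom and 3 with library totals or no filter. The fit with no filter also called 1 STAT3 target. Of the calls 48.2% were higher, and 29.1% of 561 with library totals, where the median of all genes moved to −0.16. With 1 library left out, 17 to 907 genes were called, 0 to 1 member, 1 to 5 receptors, 0 to 2 Janus kinases and STATs, 0 to 2 other brakes, 0 to 2 other SOCS box genes, 3 to 15 interferon targets and 0 to 2 ligands.

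The titles' replicate numbers were not taken as pairs, since same-numbered deviations correlated at −0.14, 0.03 and −0.27. The highest correlations were between replicates 3 without and 1 with SMARTA (0.25) and 1 without and 3 with SMARTA (0.20). The file names number the libraries with SMARTA otherwise, which would pair replicates 2, 3 and 4 without with 1, 2 and 3 with SMARTA, at −0.09, −0.06 and −0.04; no block was fitted on these numbers. The replicate block called 0 genes by edgeR (1631 with an unadjusted p under 0.05), and so 0 receptors, 0 Janus kinases and STATs, 0 other brakes, 0 other SOCS box genes and 0 interferon targets; Socs2 was then at 2.06 and Socs3 at 1.94. The lowest count of a member was 73, with a counting error of 11.7%.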
